A study of Mus musculus with 24 samples.

Results

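Aminoacyl-tRNA synthetases were followed in mouse liver under dietary methionine restriction (MR). The members are the genes listed by symbol for these enzymes. They comprise 20 genes of cytosolic enzymes and 16 genes of mitochondrial enzymes, whose symbols end in 2. All 36 were found among the 15161 genes of the count table, and all 36 passed the filter on low counts that left 13441 genes for testing.

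Total RNA was taken from livers of male mice of the inbred C57BL6/J strain, aged 4 months. The 4 groups of 6 libraries were elemental MR, elemental control, casein MR and casein control. Elemental diets supplied protein as free amino acids. The casein MR diet held oxidised casein, and the casein control diet is not labelled as oxidised, so MR and oxidation cannot be told apart on casein. Methionine made up 0.17% of the MR diets and 0.86% of the control diets. The labels do not state that each library is a separate mouse, so p-values reflect how these libraries vary among themselves, which may be technical. Single libraries carry their labels, with E or C for elemental or casein, then C or MR and a number.

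Each synthetase attaches an amino acid to its matching tRNA, which then carries it to the ribosome. Cytosolic and mitochondrial protein synthesis use separate sets of nuclear-encoded synthetases, but Gars and Kars each encode both forms. Gars and Kars are counted with the cytosolic genes here, so the mitochondrial counts leave them out. A tRNA left without its amino acid activates the kinase GCN2 (Eif2ak4), which favours translation of the transcription factor ATF4. ATF4 binds the C/EBP-ATF response element, and several cytosolic synthetase genes, like the asparagine synthetase gene Asns, are known targets. The liver makes large amounts of protein for the blood, such as albumin.

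On both protein sources MR livers had higher transcript levels of a set of cytosolic synthetases, and the glycine enzyme gene Gars had the largest change. In elemental MR, 7 of 20 cytosolic genes were higher and 0 lower, and in casein MR 9 of 20 were higher and 0 lower. Of the 16 mitochondrial genes, 0 were called in elemental MR and 3 were higher in casein MR. A gene was called when its adjusted p was under 0.05 (edgeR quasi-likelihood test, Benjamini-Hochberg adjustment over 13441 genes). Over all genes tested, 13.4% were called in elemental MR (6.78% higher, 6.64% lower) and 23.3% in casein MR (10.6% higher, 12.7% lower).

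Library totals ran from 13.5 M to 20.8 M counted reads. Levels are given in CPM, read counts divided by the scaled library size in M reads. CPM are not corrected for gene length, so they compare groups within a gene and not genes with each other. The 5 hepatocyte markers (Alb, Ttr, Apoa1, Cps1, Serpina1c) summed to 8.86 to 9.37% of reads in elemental MR and 10.2 to 10.8% in elemental control. The same markers summed to 6.97 to 7.57% in casein MR and 9.12 to 10.9% in casein control, so the MR libraries lay below the control libraries on either protein source, and their part in the results below was not tested. In bulk RNA, fewer cells of a type and less RNA per cell cannot be told apart. Skeletal muscle markers summed to 1491 per M reads in library C_MR_3438, against at most 51.5 elsewhere, and pancreas markers to 915 in library E_C_3430, against at most 62.7 elsewhere. Kupffer cell and macrophage markers reached 608 per M reads in library C_MR_3431, against at most 406 elsewhere. The 4 endothelial markers summed to 190 to 250 per M reads in casein MR and 153 to 195 in casein control, and to 174 to 187 in elemental MR and 153 to 174 in elemental control. Without library C_MR_3438, 11 cytosolic genes and 3 mitochondrial genes were higher in casein MR, and without library E_C_3430 the counts in elemental MR were unchanged at 7 and 0.

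The start regions of the genes that bear on the ATF4 pathway are shown first. RefSeq windows of GRCm38.p6 cover 250 bases before to 50 bases after each annotated start, and 13 of 20 cytosolic and 14 of 16 mitochondrial genes had one. Each was searched on both strands for the C/EBP-ATF response element as TGATGNAA, where N is any base. The E-box CACGTG was searched as well, and no match of either motif overlapped a match of the other. Capitals mark TGATGNAA or its reverse complement TTNCATCA. The cytosolic windows below are the 5 with such a match, followed by the window of the methionine enzyme gene Mars, which has none, and that of Asns as an established target.
Gars, chr6:55037751-55038050, plus strand: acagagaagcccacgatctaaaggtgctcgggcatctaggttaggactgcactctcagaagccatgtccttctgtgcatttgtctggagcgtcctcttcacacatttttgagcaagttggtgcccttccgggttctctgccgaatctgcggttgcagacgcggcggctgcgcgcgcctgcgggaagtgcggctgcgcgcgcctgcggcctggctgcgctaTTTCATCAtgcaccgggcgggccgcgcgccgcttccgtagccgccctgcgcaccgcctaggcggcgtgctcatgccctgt
Iars, chr13:49681880-49682179, plus strand: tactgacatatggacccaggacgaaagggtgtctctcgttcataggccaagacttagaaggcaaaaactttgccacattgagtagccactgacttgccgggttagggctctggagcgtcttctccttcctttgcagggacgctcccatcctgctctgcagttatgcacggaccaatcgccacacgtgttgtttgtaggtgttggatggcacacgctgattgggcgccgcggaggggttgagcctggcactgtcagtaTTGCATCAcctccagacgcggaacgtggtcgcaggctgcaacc
Yars, chr4:129189653-129189952, plus strand: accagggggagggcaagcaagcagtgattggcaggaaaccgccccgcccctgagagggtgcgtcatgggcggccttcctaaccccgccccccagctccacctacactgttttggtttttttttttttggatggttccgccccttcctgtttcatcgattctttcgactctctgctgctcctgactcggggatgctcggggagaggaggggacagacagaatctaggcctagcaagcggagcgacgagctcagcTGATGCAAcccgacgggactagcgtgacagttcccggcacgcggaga
Aars, chr8:111033592-111033891, plus strand: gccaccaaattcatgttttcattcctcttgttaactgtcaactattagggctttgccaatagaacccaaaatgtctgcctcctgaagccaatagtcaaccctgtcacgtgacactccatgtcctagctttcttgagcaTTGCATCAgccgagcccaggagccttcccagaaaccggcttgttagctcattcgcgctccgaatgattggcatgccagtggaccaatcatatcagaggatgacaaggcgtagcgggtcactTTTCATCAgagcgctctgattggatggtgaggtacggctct
Tars, chr15:11399609-11399908, minus strand: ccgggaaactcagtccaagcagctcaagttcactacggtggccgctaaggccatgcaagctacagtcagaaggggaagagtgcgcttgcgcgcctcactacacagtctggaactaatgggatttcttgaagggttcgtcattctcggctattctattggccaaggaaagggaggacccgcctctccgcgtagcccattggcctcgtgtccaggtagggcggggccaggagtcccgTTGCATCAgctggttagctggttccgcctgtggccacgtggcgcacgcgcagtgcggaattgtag
Mars, chr10:127311737-127312036, minus strand: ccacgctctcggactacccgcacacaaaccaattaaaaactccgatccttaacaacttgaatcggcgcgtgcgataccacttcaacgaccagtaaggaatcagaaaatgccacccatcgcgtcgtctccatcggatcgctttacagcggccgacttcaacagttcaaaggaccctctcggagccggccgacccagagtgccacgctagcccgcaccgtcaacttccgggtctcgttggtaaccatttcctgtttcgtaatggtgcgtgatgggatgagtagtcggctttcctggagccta
Asns, chr6:7693160-7693459, minus strand: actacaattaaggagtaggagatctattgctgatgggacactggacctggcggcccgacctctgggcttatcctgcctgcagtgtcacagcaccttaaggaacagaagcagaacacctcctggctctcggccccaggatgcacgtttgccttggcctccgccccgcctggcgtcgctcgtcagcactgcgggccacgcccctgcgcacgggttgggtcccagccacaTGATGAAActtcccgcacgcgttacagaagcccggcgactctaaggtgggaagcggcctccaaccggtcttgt

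TGATGNAA was present in 5 of the 13 cytosolic windows (38.5%) and in 0 of the 14 mitochondrial windows, beside 4.51% of 27025 genes with a window. Positions count from the annotated start, with +1 as the first transcribed base, and give the leftmost base of the match. The Gars match, TTTCATCA, began at -30, close to that of Asns, TGATGAAA, at -23. In Iars (TTGCATCA) the match began at 8 and in Yars (TGATGCAA) at 4, both just inside the transcribed part. Tars had a match (TTGCATCA) at -15, and Aars had a match at -112 (TTGCATCA) and another at 10 (TTTCATCA). CACGTG was present in 4 cytosolic windows (30.8%: Aars, Farsb, Iars, Tars) and in 1 mitochondrial window (7.14%: Ears2), beside 8.09% of all genes with a window. A match is a description of these letters and does not show that a factor binds there.

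Among the 5 cytosolic genes with TGATGNAA, 3 rose in each MR comparison (Gars, Iars and Yars), with a median log2 fold change of 0.39 in elemental MR and 0.33 in casein MR. Aars and Tars carry the motif and were not called in either. Among the 8 windows without it, 3 genes were higher in elemental MR (Mars, Sars, Farsa; median 0.06) and 3 in casein MR (Mars, Farsa, Farsb; median 0.16). The 7 genes with no window here included 1 called in elemental MR and 3 called in casein MR. Over all genes tested, 6.78% were higher in elemental MR and 10.6% in casein MR. These groups of 5, 8 and 7 genes are small, and no difference between them was tested. A match in the window was neither present in all called genes nor limited to them.

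Gars (ENSMUSG00000029777), which encodes glycyl-tRNA synthetase for cytosol and mitochondria, had the largest fold change of the 36 members in both MR comparisons. Its lowest, median and highest levels were 62.4, 70.5 and 86.2 CPM in elemental MR, against 33.6, 37.8 and 40.1 CPM in elemental control. In casein MR they were 60.2, 70.1 and 76.0 CPM, against 37.2, 39.8 and 40.4 CPM in casein control. Every MR library lay above every control library of its protein source. The log2 fold change was 0.94 ± 0.07 (SE) in elemental MR (adjusted p = 3.73e-10), or 1.92-fold. It was 0.82 ± 0.07 in casein MR (adjusted p = 1.32e-09), or 1.76-fold. These effects differed by -0.13 on the log2 scale (casein minus elemental, 95% interval -0.33 to 0.08, adjusted p = 0.682), which was not called.

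Mars (ENSMUSG00000040354) encodes cytosolic methionyl-tRNA synthetase, the enzyme for the amino acid that the diet restricts, which also charges the initiator tRNA. It ranged from 62.4 through a median of 69.5 to 78.8 CPM in elemental MR, against 38.9, 48.0 and 51.2 CPM in elemental control, with no overlap. In casein MR it ranged from 49.97 through 63.1 to 75.2 CPM, against 38.9, 49.4 and 66.0 CPM in casein control. The casein groups overlapped, since library C_C_3436, at 66.0 CPM, lay above 4 of the casein MR libraries. The log2 fold change was 0.57 ± 0.10 in elemental MR (adjusted p = 3.33e-04) and 0.32 ± 0.10 in casein MR (adjusted p = 0.0254). The casein call was lost when library C_C_3407 or library C_MR_3412 or C_MR_3419 was left out, with an adjusted p of up to 0.0748. The difference between the effects was -0.26 (95% interval -0.56 to 0.04, adjusted p = 0.503), and no difference between protein sources was detected.

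Iars, Nars, Yars and Farsa were the other cytosolic genes called on both protein sources. Iars, the isoleucine enzyme, had 26.4, 31.4 and 35.7 CPM (lowest, median, highest) in elemental MR, against 20.3, 23.2 and 25.9 CPM in elemental control. On casein it had 23.6, 30.4 and 34.3 CPM in MR, against 18.2, 21.6 and 27.4 CPM in control. The elemental groups did not overlap and the casein groups did, yet the log2 fold changes were close, at 0.44 ± 0.10 (adjusted p = 0.00297) on elemental diets and 0.45 ± 0.10 (adjusted p = 0.00124) on casein. Nars, the asparagine enzyme, had 126, 137 and 151 CPM in elemental MR, against 103, 107 and 123 CPM in elemental control. It had 110, 126 and 138 CPM in casein MR, against 82.5, 98.7 and 109 CPM in casein control. All 6 MR libraries exceeded all 6 controls in each setting, and the log2 fold changes were 0.34 ± 0.07 (adjusted p = 9.77e-04) in elemental MR and 0.35 ± 0.07 (adjusted p = 2.25e-04) in casein MR.

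Yars, the tyrosine enzyme, had 21.1, 27.2 and 29.0 CPM in elemental MR, against 17.3, 19.9 and 24.4 CPM in elemental control. In casein MR it had 19.8, 23.5 and 26.0 CPM, against 16.1, 18.5 and 20.5 CPM in casein control. Neighbouring libraries overlapped in each setting, and the log2 fold change was 0.39 ± 0.09 in elemental MR (adjusted p = 0.00584) and 0.33 ± 0.09 in casein MR (adjusted p = 0.0115). Farsa encodes the alpha subunit of the phenylalanine enzyme and had 59.7, 61.9 and 65.1 CPM in elemental MR, against 50.2, 52.3 and 60.8 CPM in elemental control. On casein Farsa had 54.7, 59.8 and 64.9 CPM in MR, against 43.9, 53.2 and 56.5 CPM in control. Its change was small, at 0.21 ± 0.06 on each protein source (adjusted p = 0.0288 elemental, 0.0193 casein). Either call could be lost by leaving out a single library.

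**Figure D1:**
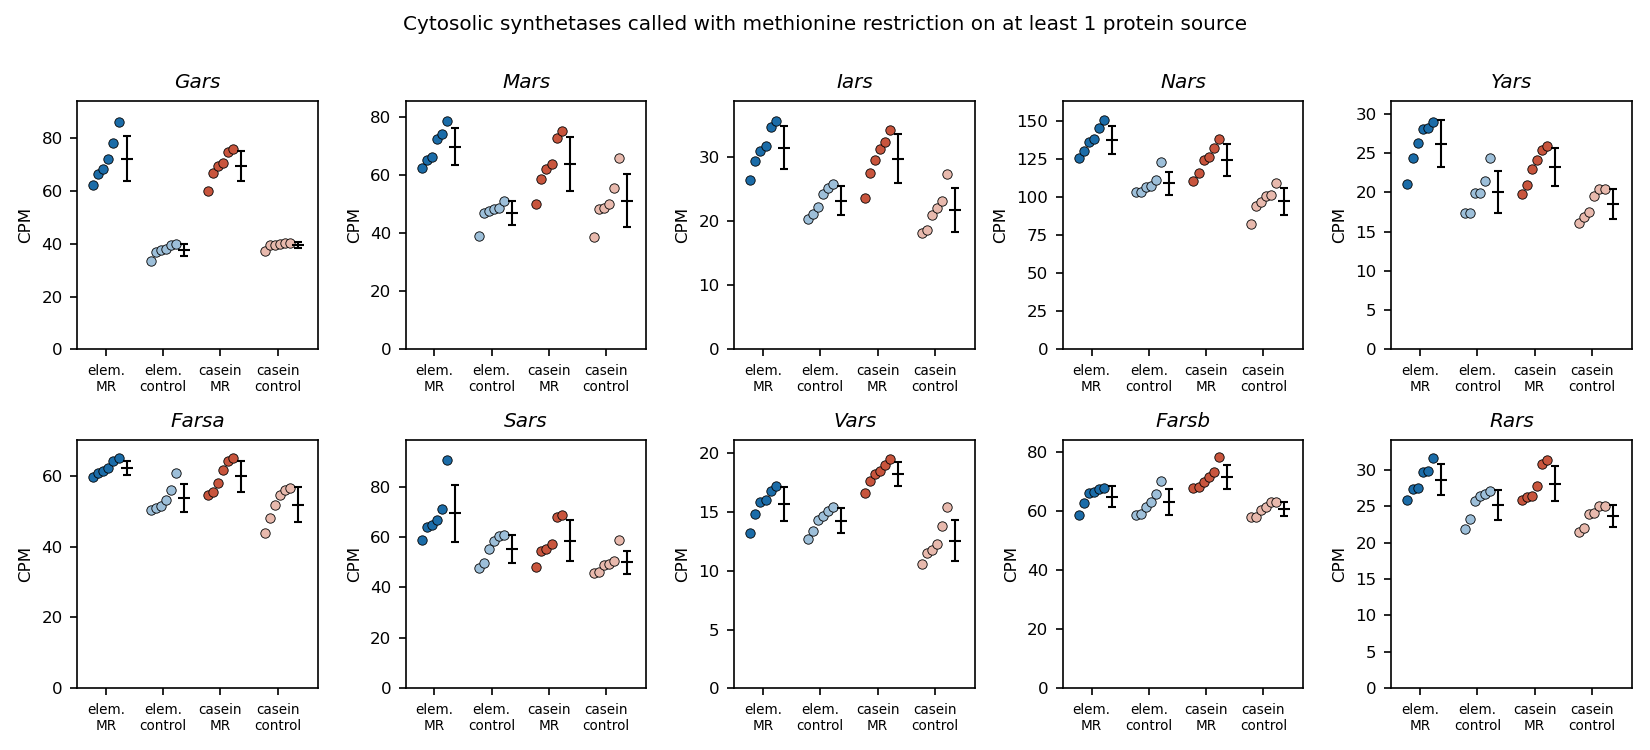
Level in CPM (y axis, from 0) of the 10 cytosolic synthetases called in at least 1 MR comparison, for elemental MR, elemental control, casein MR and casein control (x axis). Each point is 1 of 6 libraries, sorted by level within its group, and the bar beside the points is the mean with its SD. Gars separates fully on both protein sources, with 60.2 to 86.2 CPM in the MR libraries and 33.6 to 40.4 CPM in the control libraries.

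Sars, the serine enzyme, was called in elemental MR only, but the difference between the effects was not called (-0.09, 95% interval -0.38 to 0.19, adjusted p = 0.867). It had 58.7, 65.7 and 90.6 CPM in elemental MR, against 47.8, 56.8 and 60.8 CPM in elemental control. In casein MR it had 48.0, 56.2 and 68.6 CPM, against 45.9, 49.0 and 58.8 CPM in casein control. The top value, 90.6 CPM, came from library E_MR_3424. The log2 fold change was 0.32 ± 0.10 in elemental MR (adjusted p = 0.0258) and 0.23 ± 0.10 in casein MR (adjusted p = 0.0919). Without library E_MR_3424 the elemental value was 0.23 (adjusted p = 0.0891), and the call was also lost without library E_C_3401 or E_C_3427.

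Vars, Farsb and Rars were called in casein MR alone. Vars (ENSMUSG00000007029), the valine enzyme, had 16.6, 18.4 and 19.5 CPM in casein MR, against 10.58, 12.015 and 15.42 CPM in casein control, with no overlap. On elemental diets it had 13.3, 15.9 and 17.2 CPM in MR, against 12.7, 14.5 and 15.5 CPM in control, where 4 of the 6 MR libraries lay above the highest control library. The log2 fold change was 0.54 ± 0.08 in casein MR (adjusted p = 1.83e-05) and 0.13 ± 0.08 in elemental MR (adjusted p = 0.329). The difference of 0.40 (95% interval 0.16 to 0.64) had the smallest adjusted p of the 36 members, 0.0708, and was not called. It was called with the DESeq2 Wald test (0.40, adjusted p = 0.0470), with limma-voom (0.42, adjusted p = 0.0401) and without library C_C_3407 (0.48, adjusted p = 0.0127). On the control diets Vars was at 12.6 ± 1.76 CPM on casein and 14.3 ± 1.04 CPM on elemental diets (SD, n = 6 each; log2 fold change -0.18 ± 0.08, adjusted p = 0.396).

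Farsb encodes the beta subunit that pairs with Farsa. It had 67.7, 70.8 and 78.3 CPM in casein MR, against 57.9, 60.8 and 63.1 CPM in casein control, with no overlap (log2 fold change 0.24 ± 0.05, adjusted p = 0.00149). In elemental MR it had 58.7, 66.3 and 67.8 CPM, against 58.6, 62.2 and 70.3 CPM in elemental control (0.04 ± 0.05, adjusted p = 0.696). The difference between the effects was 0.20 (95% interval 0.04 to 0.35, adjusted p = 0.231), so it missed the threshold although the unadjusted interval excludes 0. Rars, the arginine enzyme, had 25.9, 27.1 and 31.4 CPM in casein MR, against 21.5, 24.1 and 25.0 CPM in casein control, again with no overlap (0.25 ± 0.07, adjusted p = 0.00839). In elemental MR it had 25.9, 28.6 and 31.7 CPM, against 21.9, 26.0 and 27.0 CPM in elemental control (0.19 ± 0.07, adjusted p = 0.074).

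The remaining 10 cytosolic genes were called on neither protein source. Cars, the cysteine enzyme, had 30.6 ± 6.11 CPM in elemental MR and 23.2 ± 4.82 CPM in elemental control (SD, n = 6 each). Its log2 fold change of 0.40 ± 0.17 was as large as that of Yars but came with a wider spread (adjusted p = 0.115), and it was 0.18 ± 0.17 in casein MR (adjusted p = 0.498). Library E_MR_3416 was lowest in elemental MR for Cars, at 19.3 CPM, against 28.1 to 35.4 CPM in the others. Without that library the elemental value was 0.50 (edgeR, adjusted p = 0.0372), so its side of the threshold depended on it. Aars, the alanine enzyme, stood at 0.18 ± 0.07 in elemental MR (adjusted p = 0.075) and 0.12 ± 0.07 in casein MR (adjusted p = 0.216), and 14.3% of its exon bases are shared with Exosc6 on the same strand in GENCODE vM21. Lars, the leucine enzyme, stood at 0.08 ± 0.09 in elemental MR and 0.23 ± 0.09 in casein MR (adjusted p = 0.649 and 0.0644). Values below 0 in both comparisons were those of Tars, Dars and Qars, the enzymes for threonine, aspartate and glutamine. Qars came nearest to a call, at -0.17 ± 0.06 in casein MR (adjusted p = 0.0524) and -0.09 ± 0.06 in elemental MR (adjusted p = 0.422). Some edgeR fits that left out a library called Qars lower in casein MR, such as that without C_MR_3425 (-0.19, adjusted p = 0.0324). Eprs, a fused enzyme for glutamate and proline, and Kars, the lysine enzyme, lay between 0.03 and 0.11 in both. Wars (tryptophan) and Hars (histidine) had values of opposite sign on the 2 protein sources, none called.

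Over the 20 cytosolic genes the median log2 fold change was 0.16 in elemental MR, with 15 values above 0, and the median over all genes was -0.0028. In casein MR the median was 0.22, with 17 values above 0, and the median over all genes was 0.0097. In elemental MR 4 of 20 (20%: Gars, Mars, Iars, Nars) had every MR library above every control library, beside 3.24% of all genes, and 0 had every MR library below, beside 3.59%. In casein MR 5 of 20 did (25%: Gars, Nars, Vars, Farsb, Rars), beside 4.82% of all genes. Of the cytosolic genes 6 were called on both protein sources, 1 on elemental diets only, 3 on casein only and 10 on neither. The share of all genes called on both is not given here, so the count of 6 is only a description. The summed level of the 20 genes was 1281 ± 66.7 CPM in elemental MR and 1130 ± 63.1 CPM in elemental control, and 1221 ± 98.8 CPM in casein MR and 1086 ± 65.2 CPM in casein control (SD, n = 6 each).

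**Figure D2:**
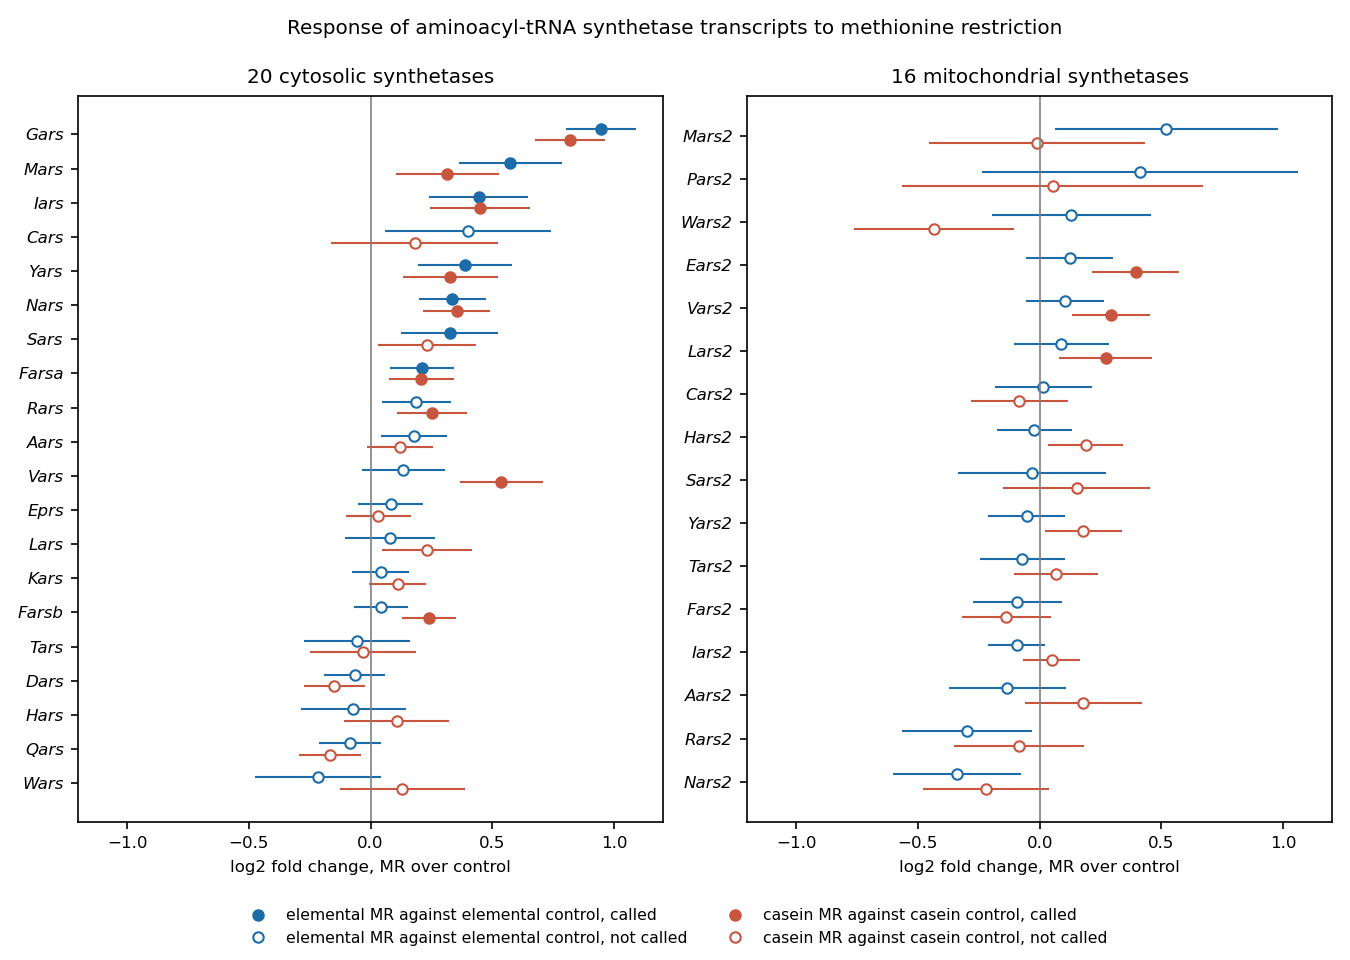
Log2 fold change, MR over control (x axis), with its 95% interval for each of the 20 cytosolic (left) and 16 mitochondrial (right) synthetases, in elemental MR against elemental control (blue) and casein MR against casein control (red). Filled points were called at an adjusted p under 0.05 and open points were not. Filled points number 7 and 9 on the left and 0 and 3 on the right, and all of them lie to the right of 0.

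The called enzymes did not fall into a single structural class or complex. Of the class I enzymes, which share a Rossmann-fold catalytic domain, 3 of 9 were higher in elemental MR (median log2 fold change 0.19) and 5 of 9 in casein MR (0.25). Of the class II genes, with Farsa and Farsb counted separately, 4 of 10 were higher in each (medians 0.11 and 0.16). Among the 8 members of the multisynthetase complex, a cytosolic assembly of synthetases on scaffold proteins, 2 were higher in elemental MR (Iars, Mars) and 3 in casein MR (Iars, Mars, Rars). Outside the complex 5 of 12 were higher in elemental MR and 6 of 12 in casein MR. The scaffold genes Aimp1, Aimp2 and Eef1e1 were called in neither comparison, with values between -0.12 and 0.12. By substrate, 3 of 11 genes for amino acids taken as essential for the mouse were higher in elemental MR (median 0.08) and 6 of 11 in casein MR (0.23). The 11 include arginine (Rars), and they count Farsa and Farsb separately though these encode subunits of the same enzyme. For the other substrates the counts were 4 of 9 (median 0.32) and 3 of 9 (0.18). Over all genes tested, 6.78% were higher in elemental MR and 10.6% in casein MR. The counts above are over few genes, and no difference between the classes was tested.

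Mitochondrial synthetases in elemental MR gave 0 calls among 16 with edgeR and 0 with DESeq2. Over all genes 13.4% were called in elemental MR (edgeR), and among only 16 genes a count of 0 does not set the list apart. At an unadjusted p under 0.05 there were 3 of these 16 genes, with 1 higher and 2 lower. The median log2 fold change was -0.03, and 7 values lay above 0. Nars2, for asparagine, had the smallest adjusted p, with 5.48, 6.59 and 8.25 CPM in elemental MR, against 7.26, 9.03 and 9.79 CPM in elemental control (-0.34 ± 0.13, adjusted p = 0.0794). In casein MR it had 6.48, 7.49 and 10.9 CPM, against 7.57, 9.46 and 10.7 CPM in casein control (-0.22 ± 0.13, adjusted p = 0.229). The groups overlapped in each setting. Without library C_MR_3425 Nars2 was called lower in both comparisons (adjusted p = 0.0497 elemental, 0.0491 casein), the elemental call through the shared estimate of the spread. Rars2, for arginine, stood at -0.30 ± 0.13 in elemental MR (adjusted p = 0.135).

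In casein MR, 3 of the 16 mitochondrial genes were higher (Ears2, Vars2 and Lars2) and 0 lower. Over all genes 23.3% were called in casein MR, with 10.6% higher, so these 3 calls do not set the list apart. Ears2 (ENSMUSG00000030871), the mitochondrial glutamate enzyme, also supplies the charged tRNA that an amidotransferase converts for glutamine. It had 9.40, 10.1 and 11.8 CPM in casein MR, against 6.80, 7.73 and 8.63 CPM in casein control, with no overlap (log2 fold change 0.39 ± 0.09, adjusted p = 0.00128). In elemental MR it had 8.38, 9.98 and 11.04 CPM, against 7.57, 9.17 and 10.2 CPM in elemental control (0.12 ± 0.09, adjusted p = 0.407). Casein MR over elemental MR gave 0.05 ± 0.09 (adjusted p = 0.817), and casein control over elemental control gave -0.22 ± 0.09, not called, with the smallest adjusted p of the 36 members between the control diets at 0.325.

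Vars2, for valine, had 15.8, 16.6 and 17.4 CPM in casein MR, against 11.3, 13.9 and 15.2 CPM in casein control, with no overlap (0.29 ± 0.08, adjusted p = 0.00576). It had 13.5, 14.2 and 15.8 CPM in elemental MR, against 11.5, 13.2 and 15.7 CPM in elemental control (0.10 ± 0.08, adjusted p = 0.433). Lars2, for leucine, had 11.4, 12.3 and 13.6 CPM in casein MR, against 8.99, 9.69 and 13.4 CPM in casein control, where 1 library, C_C_3413, lay within the MR range (0.27 ± 0.09, adjusted p = 0.0365). In elemental MR it had 9.10, 10.5 and 11.2 CPM, against 8.67, 9.63 and 12.3 CPM in elemental control (0.09 ± 0.09, adjusted p = 0.618). The Lars2 call was lost in 8 of 24 fits that left out a library, with an adjusted p of up to 0.0856.

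Wars2, for tryptophan, was the member whose 6 casein MR libraries all lay below the 6 casein control libraries, at 1.94, 2.59 and 3.10 CPM in casein MR, against 3.11, 3.62 and 3.89 CPM in casein control. Of all genes 6.18% showed such a separation, and the test did not call Wars2 (-0.43 ± 0.16, adjusted p = 0.0512). Wars2 was called lower with limma-voom (-0.47, adjusted p = 0.0490) and with edgeR on the compared groups alone (-0.43, adjusted p = 0.0372). Some edgeR fits that left out a library also called it lower, so its side of the threshold depended on the setting. In elemental MR it had 2.28, 3.74 and 4.46 CPM, against 2.41, 3.14 and 4.21 CPM in elemental control (0.13 ± 0.16, adjusted p = 0.673). The difference between the effects was -0.56 (95% interval -1.03 to -0.10, adjusted p = 0.258).

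Mars2, the mitochondrial methionine enzyme, rested on 16 to 46 reads per library. It had 1.47, 2.05 and 2.36 CPM in elemental MR, against 0.963, 1.24 and 2.16 CPM in elemental control (0.52 ± 0.22, adjusted p = 0.128). In casein MR it had 1.04, 1.87 and 2.52 CPM, against 1.11, 1.96 and 2.25 CPM in casein control (-0.01 ± 0.22, adjusted p = 0.979). Without library E_C_3401 the elemental value was 0.70 (adjusted p = 0.0423), so its side of the threshold depended on that library. Pars2, for proline, had 7 to 35 reads per library and 0.41 ± 0.32 in elemental MR (adjusted p = 0.451).

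Over the 16 mitochondrial genes the median in casein MR was 0.06, with 10 values above 0. In casein MR 2 of 16 had every MR library above every control library (12.5%: Ears2, Vars2), beside 4.82% of all genes, and 1 of 16 had every one below (6.25%: Wars2), beside 6.18%, a share near that of all genes. In elemental MR 0 of 16 separated in either direction, beside 3.24% of all genes above and 3.59% below. The summed level was 184.8 ± 5.42 CPM in elemental MR and 191 ± 5.49 CPM in elemental control, and 200.5 ± 4.73 CPM in casein MR and 189.6 ± 5.45 CPM in casein control (SD, n = 6 each). So the sum was a little lower in elemental MR and higher in casein MR than in the control group of the same protein source, and this sum was not tested.

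**Figure D3:**
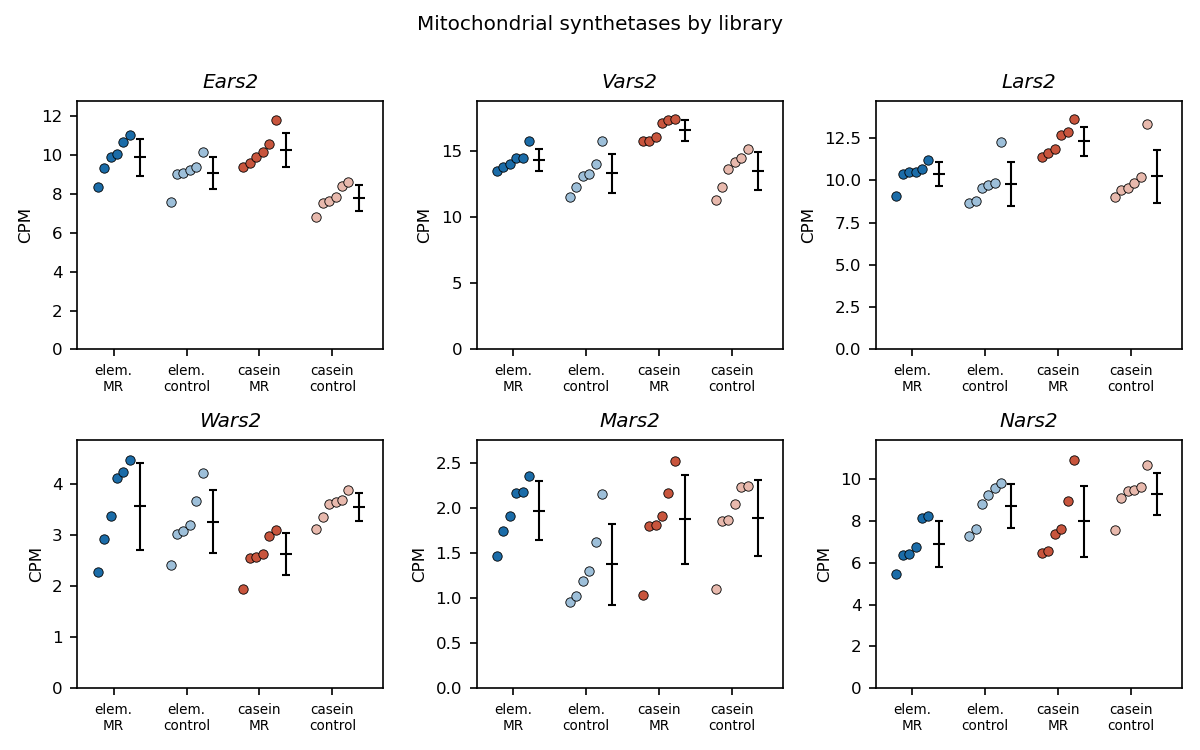
Level in CPM (y axis, from 0) of 6 mitochondrial synthetases, the 3 called in casein MR together with Wars2, Mars2 and Nars2, for elemental MR, elemental control, casein MR and casein control (x axis). Each point is 1 of 6 libraries, sorted by level within its group, and the bar beside the points is the mean with its SD. Ears2 and Vars2 separate casein MR from casein control. Wars2, which was not called, does so narrowly in the other direction (highest casein MR library 3.10 CPM, lowest casein control library 3.11 CPM).

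For 13 amino acids a cytosolic and a mitochondrial enzyme with matching symbols were on the list, such as Mars and Mars2. In elemental MR the cytosolic log2 fold change was above the mitochondrial value in 10 of 13 pairs, with a median difference of 0.31. In casein MR this held in 9 of 13 pairs, with a median difference of 0.24. In each comparison 5 pairs had a cytosolic call alone, and 0 pairs had calls in opposite directions. Among these 13, Vars and Vars2 were the only pair called together, in casein MR, and Lars2 was called there without Lars. The asparagine pair lay furthest apart of the 13 in both, with Nars at 0.34 and Nars2 at -0.34 in elemental MR, and Nars at 0.35 and Nars2 at -0.22 in casein MR. Phenylalanine, glutamate and proline also have both forms but no matching pair of symbols, since Farsa and Farsb are subunits of 1 enzyme and Eprs serves glutamate and proline. Fars2 stood at -0.09 ± 0.09 in elemental MR and -0.14 ± 0.09 in casein MR, called in neither, while Farsa was called in both and Farsb in casein MR. For glutamate, Ears2 was called higher in casein MR without Eprs, which stood at 0.03 ± 0.07 there (adjusted p = 0.791). For proline, Pars2 and Eprs were called in neither comparison. Iars2 shares 22.9% of its exon bases with Rab3gap2 on the opposite strand in GENCODE vM21, the largest such share among the members. Hars and Hars2 lie head to head and share 7.97% of the exon bases of Hars on the opposite strand in that annotation. The counting strand is not known here, so reads of these genes and their neighbours may be mixed in part.

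For the methionine pair the log2 ratio of Mars to Mars2 was computed in each library, with a prior count of 2. It was 5.08 ± 0.16 in elemental MR and 5.02 ± 0.42 in elemental control (SD, n = 6 each; two-sided exact permutation p = 0.79, adjusted over both tests 0.79). In casein MR it was 5.03 ± 0.36 and in casein control 4.69 ± 0.58 (two-sided exact permutation p = 0.238, adjusted 0.476). The smallest p these groups allow is 0.00216. The casein difference of 0.34 became 0.56 (exact permutation, adjusted p = 0.00866) when library C_C_3436 was left out, whose ratio was 5.76 against 4.05 to 4.68 in the other 5.

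**Figure D4:**
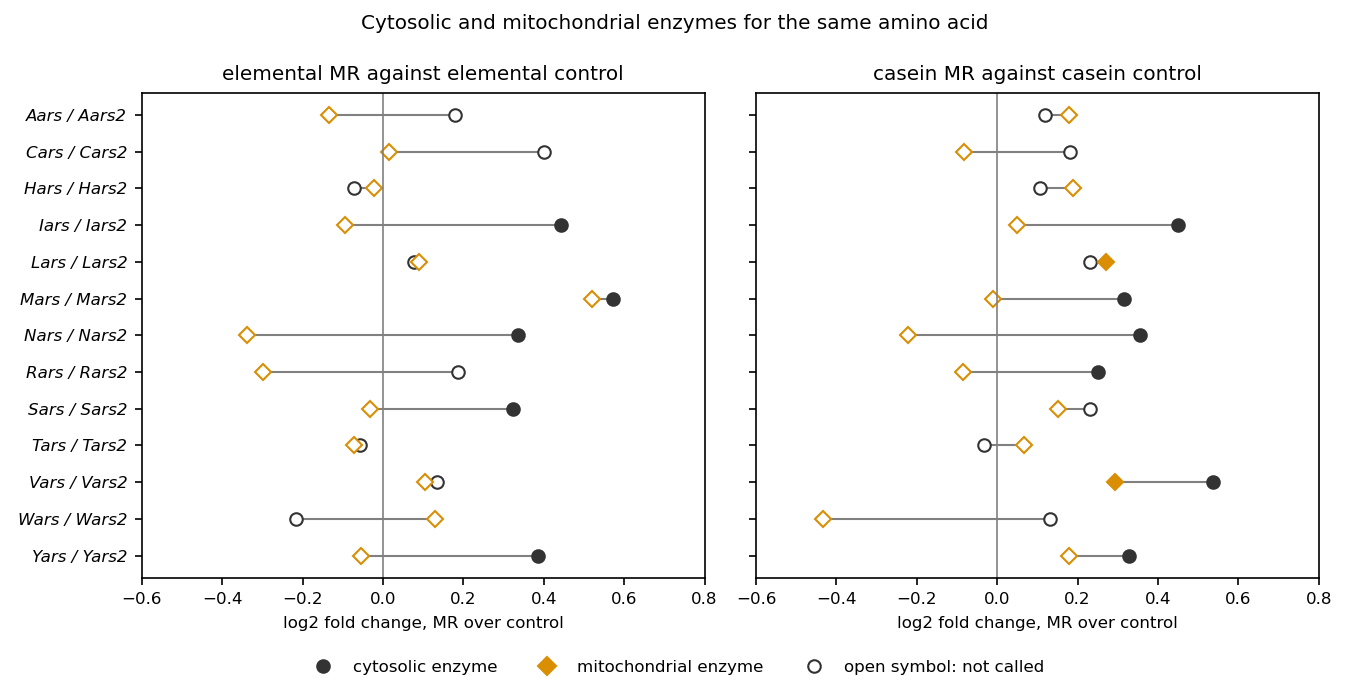
Log2 fold change, MR over control (x axis), of the cytosolic enzyme (circle) and the mitochondrial enzyme (diamond) for the same amino acid, 1 of the 13 pairs with matching symbols per row, on elemental diets (left) and casein (right). Filled symbols were called at an adjusted p under 0.05. The circle lies to the right of the diamond in 10 of 13 pairs on the left and 9 of 13 on the right.

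The MR effects on the 2 protein sources were then set against each other. The difference between them (casein minus elemental) was called for 2.34% of all genes and for 0 of the 36 synthetases (edgeR), with 5 at an unadjusted p under 0.05, of which 4 were higher. DESeq2 called 1, Vars. The median difference was 0.0013 over the cytosolic genes and 0.16 over the mitochondrial genes, of which 11 of 16 lay above 0. Between casein MR and elemental MR livers 6.5% of all genes were called and 0 of the 36, with 10 at an unadjusted p under 0.05, of which 6 were higher. The mitochondrial values lay above 0 for 14 of 16 genes (median 0.11) and the cytosolic values for 7 of 20 (median -0.05). Wars2 came nearest in that comparison (-0.44 ± 0.16, adjusted p = 0.102). Between casein control and elemental control livers 0.104% of all genes were called and 0 of the 36, with 4 at an unadjusted p under 0.05. DESeq2 called 0 of the 36 in these last comparisons as well. These comparisons use the same libraries as the MR effects, so they are not separate evidence.

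Other genes that handle tRNA were read from lists. Of 11 tested genes for other charging and editing steps, 1 was higher and 1 lower in elemental MR, and 1 was lower in casein MR. Over all genes 13.4% were called in elemental MR and 23.3% in casein MR, so these few calls do not set the list apart. Gatb, a subunit of the mitochondrial amidotransferase that makes glutaminyl-tRNA, rose in elemental MR (20.2 ± 1.27 CPM in elemental MR and 16.6 ± 1.83 CPM in elemental control, adjusted p = 0.0446). On casein Gatb stood at 19.9 ± 1.97 CPM in MR and 20.1 ± 3.12 CPM in control, not called. Dtd2, a deacylase that removes mischarged amino acids from tRNA, fell in elemental MR (6.44 ± 0.83 CPM in elemental MR and 9.22 ± 1.96 CPM in elemental control, adjusted p = 0.00734). It had 7.33 ± 1.13 CPM in casein MR and 7.97 ± 0.71 CPM in casein control, not called. Sepsecs, the last enzyme of selenocysteinyl-tRNA synthesis, fell in casein MR (27.4 ± 2.91 CPM in casein MR and 33.4 ± 4.25 CPM in casein control, adjusted p = 0.0273). It had 29.3 ± 3.58 CPM in elemental MR and 29.0 ± 3.62 CPM in elemental control, not called. For Gatb, Dtd2 and Sepsecs the difference between the MR effects was not called (edgeR, adjusted p = 0.322, 0.365 and 0.335). Mtfmt, which formylates the mitochondrial initiator methionyl-tRNA, stood at -0.01 ± 0.12 in elemental MR and 0.19 ± 0.12 in casein MR on the log2 scale, called in neither.

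Of 5 genes for tRNA export and delivery to the ribosome in the cytosol, 3 were higher in elemental MR and 2 in casein MR. The shares of all genes called higher were 6.78% and 10.6%. Eef1b2, part of the exchange factor that reloads the tRNA-delivering elongation factor, had 350 ± 29.8 CPM in elemental MR and 287 ± 15.6 CPM in elemental control. It had 363 ± 26.2 CPM in casein MR and 304 ± 29.1 CPM in casein control (log2 fold changes 0.28 and 0.26, adjusted p = 0.00487 and 0.00547). Eef1g, of the same complex, was higher in both (0.17 and 0.26, adjusted p = 0.0403 and 8.40e-04), and Eef1a1, the delivering factor, in elemental MR (0.17, adjusted p = 0.0446). The tRNA exporter gene Xpot had 0.27 ± 0.09 in elemental MR and 0.23 ± 0.09 in casein MR, just short of a call (adjusted p = 0.0517 and 0.0718). Of 6 factors of mitochondrial translation, 0 were called in elemental MR and 1, the initiation factor gene Mtif3, was lower in casein MR (-0.26, adjusted p = 0.00147). Of all genes 12.7% were lower in casein MR, so a single call among 6 genes does not set this list apart.

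Among 5 genes of the response to uncharged tRNA, Asns and Trib3, both targets of ATF4, were higher in each MR comparison. Over all genes 6.78% were higher in elemental MR and 10.6% in casein MR. Asns had 58.0, 72.6 and 80.4 CPM in elemental MR, against 3.67, 8.06 and 10.4 CPM in elemental control. It had 50.01, 63.7 and 72.3 CPM in casein MR, against 0.763, 1.81 and 3.56 CPM in casein control. Between the MR diets no difference was called (log2 fold change -0.18 ± 0.18, casein MR over elemental MR, adjusted p = 0.653), and the casein control level was below the elemental control level (-1.96 ± 0.26, adjusted p = 2.78e-04). No such gap between the control diets was called for any synthetase. Trib3 rose by 0.997 ± 0.23 in elemental MR (adjusted p = 0.00351) and 0.81 ± 0.23 in casein MR (adjusted p = 0.00957). The transcript of Atf4 itself stood at 0.19 ± 0.09 in elemental MR and 0.16 ± 0.09 in casein MR, not called. ATF4 protein and its activity were not measured here. The kinase gene Eif2ak4 was called in neither (0.11 ± 0.10 and 0.22 ± 0.10), and Gcn1, its activator, was lower in casein MR (-0.27 ± 0.08, adjusted p = 0.0161).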

How the data were processed

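The authors deposited read counts, whole numbers per Ensembl gene and library, and a normalized table of size-factor scaled signal. That deposited signal was checked to equal the counts divided by 1 factor per library (0.745 to 1.32), and only the counts were tested. For RNA selection, strand, genome build, aligner and counter, the methods were not given in the sources used here. The lowest gene total was 72 reads. The deposited table gave 13002 symbols and the annotation 2119 more, and 40 genes had none. The filter on low counts (filterByExpr) kept 13441 genes and 99.93% of reads.

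The counts entered edgeR 4.0.16 (R 4.3.3) with trimmed mean of M values scaling, 1 quasi-likelihood fit of 4 group means over 24 libraries, and Benjamini-Hochberg adjustment over all genes within a comparison. The common coefficient of variation was 0.159. Standard errors and 95% intervals followed from the fold change and its F statistic. Simulated counts with known changes were used to test the code. Alternatives were DESeq2 1.42.0 (size factors; Wald test), upper quartile scaling, other filters, limma-voom (3.58.1), 1 surrogate variable (sva 3.50.0), a fit of only the compared groups, an adjusted p under 0.01, and leaving out each library. Members, lists, markers and tests were chosen with earlier results of these data known. All 36 members could be named, and those called, with Mars and Mars2, got values in every group. Other lists were described by counts and called genes. The 60 within-group library pairs held 0 identical pairs, and the labels name no batch. Counting error and depth limit the genes with few reads most. Aarsd1, a listed editing gene, did not pass the filter. The values of 1 gene of the other lists are not reported here. Promoter windows are RefSeq's.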

Additional observations from a re-analysis of the deposited data

Results flagged for a closer look

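Of 156 groups of 6 libraries (each synthetase, the 2 sums and the methionine pair ratio, in each diet group), 14 had a library that stood apart from the rest, and chance gives about 1 in 20. The sums and the ratio are built from the single genes, so these groups are not separate and the comparison with 1 in 20 is rough. Library C_C_3436 of casein control accounts for 5 of the 14, but its sum includes Tars and its ratio includes Mars2, both also among the 5. It was highest for Hars (21.02 CPM, others 13.80 to 16.50) and Tars (274.6 CPM, others 165.2 to 201.2), lowest for Mars2 (1.106 CPM, others 1.862 to 2.251), and highest for the summed cytosolic level (1209 CPM, others 1017 to 1087) and the Mars to Mars2 log2 ratio (5.755, others 4.048 to 4.68). In casein control, library C_C_3421 was low for Gars (37.16 CPM, others 39.49 to 40.37), library C_C_3407 high for Sars (58.82 CPM, others 45.91 to 50.60) and library C_C_3413 high for Lars2 (13.36 CPM, others 8.987 to 10.21). In casein MR, library C_MR_3412 was high for Aars (155.5 CPM, others 121.3 to 133.2) and Tars2 (17.40 CPM, others 12.20 to 13.48). In elemental MR, library E_MR_3424 was low for Hars (13.31 CPM, others 16.41 to 17.65). In elemental control, library E_C_3428 was low for Mars (38.94 CPM, others 47.08 to 51.23) and high for Hars2 (19.53 CPM, others 17.05 to 17.78), and library E_C_3418 was high for Lars2 (12.26 CPM, others 8.671 to 9.855).

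The MR effect on Asns differed between the protein sources by 1.782 on the log2 scale (casein minus elemental; edgeR, adjusted p = 0.00155), while the difference was called for 0 of the 36 synthetases.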

How the results depend on the processing

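The cytosolic counts stayed between 5 and 8 in elemental MR and between 6 and 11 in casein MR over all settings, and the mitochondrial count in casein MR between 2 and 4. The mitochondrial count in elemental MR was 0 to 1 when a library was left out (1 without E_C_3401 or C_MR_3425) and 0 elsewhere. For the difference between the MR effects the synthetase count was 0 to 1 over left-out libraries and 1 with DESeq2 and with limma-voom (Vars each time). Between the MR diets it was 0 to 1 (Eprs, lower without C_MR_3433; Wars2, lower without E_MR_3424). Over all genes, an adjusted p under 0.01 left 974 calls of 1803 in elemental MR, 153 of 315 for the difference, 450 of 873 between the MR diets and 3 of 14 between the control diets. Between the control diets there were 73 with DESeq2, 3 with limma-voom, 7 with the compared groups alone and 5 to 33 over left-out libraries, and the cause was not tested.

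Of the members called, 5 of 7 in elemental MR and 9 of 12 in casein MR kept their call in every setting that kept the 0.05 threshold. Elemental calls were lost for Farsa without E_C_3401, E_C_3418, E_C_3427 or E_C_3428 or E_MR_3403 or E_MR_3405, and for Sars as given above. Casein calls were lost with the compared groups alone for Farsa, Mars and Lars2 (adjusted p = 0.0547, 0.0685 and 0.0640). They were also lost for Farsa without C_C_3421 or C_MR_3412 or C_MR_3419, and for Lars2 without C_C_3407, C_C_3421, C_C_3429, C_C_3436 or C_C_3437 or C_MR_3419, C_MR_3425 or C_MR_3431. Among members not called, 4 of 29 in elemental MR (Aars, Cars, Mars2, Nars2) and 7 of 24 in casein MR (Lars, Qars, Sars, Hars2, Nars2, Wars2, Yars2) were called in at least 1 setting. No called value changed sign, and a sign change of a value never past the threshold was not counted. Another scaling moved the median of all genes by under 0.1 in each comparison. The Mars to Mars2 difference was -0.0765 to 0.145 on elemental diets and 0.215 to 0.557 on casein over left-out libraries. No paired analysis was possible because the 4 groups share no library number. The fit of the compared groups alone does not exist for the difference, which uses all 4. Depth limits Mars2 and Pars2 most.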
